A study of Citrus sinensis and Citrus x aurantiifolia and Citrus x latifolia with 53 samples.

Results

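The roots of Mexican lime trees grafted on a diploid rootstock were compared after loss of irrigation and under regular watering. The set held 7 of the 53 libraries of the series, 4 from trees left without irrigation for 9 days and 3 from irrigated trees, and was chosen by the labels for tissue, scion, rootstock and treatment. It is written ML2x below, for the scion (Mexican lime, Citrus aurantiifolia, a diploid) and the ploidy of the rootstock (diploid, 2x). The rootstock was 1 line, Swingle citrumelo 4475. Since roots belong to the rootstock, every root library of the set has the genotype of that line. Both groups shared the graft, the insect-proof greenhouse and 2 years in 40 L pots with daily watering and fertiliser. The design, made of 28 trees, had 4 droughted and 3 irrigated trees in each of 4 combinations, and both leaves and roots were taken from the trees, so each root library came from its own tree and shared that tree with a leaf library of the design. The other combinations were Mexican lime on the tetraploid form of the same citrumelo (ML4x) and Persian lime, a triploid scion, on the diploid (PL2x) or the tetraploid (PL4x). In the series PL2x roots had 3 droughted and 3 irrigated libraries, fewer than in the design. The study asked whether polyploidy of scion or rootstock changes how a tree meets lack of water, and ML2x is its all-diploid graft.

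Roots are where drying soil is first met. Abscisic acid, the hormone best known for closing leaf pores in drought, also acts in roots, where drought is known to switch on protective proteins and solute synthesis and to slow growth, nutrient uptake and wall building. Which of these pathways changed could not be read from the files, because they list genes by clementine-type identifiers and pair none of them with a name. The reference table at hand, of sweet orange, matched 0 of the 24533 identifiers. Genes are therefore given by identifier, no more than 2 per direction and comparison, with no role, and no sequence or cell type marker was available for them.

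The label of the tissue was checked without gene names. A list of 2132 root-enriched genes and one of 874 leaf-enriched genes were taken from the irrigated trees of the other 3 combinations, with at least 5 CPM in one organ (CPM, the count of a gene scaled to library size) and 10 times the level of the other. Root-enriched genes took 8.03 to 9.79% of the counts in the 4 droughted ML2x root libraries and 14.4 to 16.5% in the 3 irrigated ones, against 0.912 to 2.15% in droughted and 0.364 to 0.388% in irrigated ML2x leaves. Leaf-enriched genes took 0.733 to 1.00% in droughted and 0.657 to 0.765% in irrigated ML2x roots. In ML2x leaves they took 16.0 to 22.8% in droughted and 32.7 to 36.1% in irrigated libraries. The root libraries matched their label.

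Depth differed between the trees. The droughted libraries WD 1 to WD 4 held 16958848, 7051006, 14040483 and 1118899 counts, and the irrigated libraries Ctrl 1 to Ctrl 3 held 13070180, 20813604 and 19531458. WD 4 had the fewest counts of the 27 root libraries, the next being WD 2 with 7051006. Rank correlations of log2 CPM were 0.902 to 0.906 between WD 4 and the other droughted libraries, 0.964 to 0.98 among those 3, and 0.959 to 0.982 among the irrigated ones. WD 4 thus stood apart from its group, and some results, among them the numbers of genes called, are also given without it. Fold sizes of the called genes, the separation library by library and the genes without counts in droughted roots are given only with WD 4. So are the overlaps with single combinations and the genes called in no other combination. How far these depend on WD 4 was not tested.

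After 9 days without water 3371 genes rose (16.5%) and 4679 fell (22.9%) of the 20452 genes tested in ML2x roots, 39.4% in all. A gene is called where its adjusted p is under 0.05 in edgeR's quasi-likelihood test with Benjamini-Hochberg adjustment over all genes, fitted on all 27 root libraries. Falls were larger than rises. The median log2 fold change was -2.01 among genes that fell and 0.96 among those that rose. Changes over 16-fold numbered 602 downwards and 86 upwards, and those between 8- and 16-fold 650 downwards and 116 upwards. Below 2-fold the order turned, with 823 genes lower and 1769 higher. Without WD 4, 4119 genes rose and 4529 fell. Without Ctrl 1, 2165 rose and 3455 fell. With the 7 libraries thinned to the counts of WD 4 (1118899), 2921 rose and 2611 fell, so the excess of falls was not kept at that depth.

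**Figure D1:**
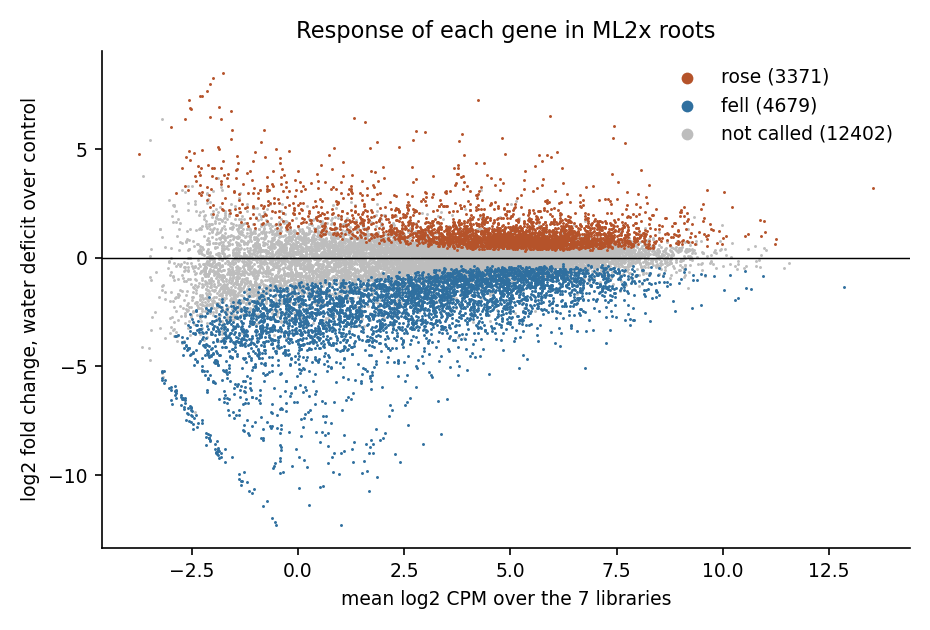
Each point is 1 of the 20452 genes tested, with its mean log2 CPM over the 7 ML2x root libraries (horizontal) and its log2 fold change of water deficit over control (vertical), coloured by whether it rose (3371), fell (4679) or was not called. Falls reach farther from 0 than rises. Where a group has few or no reads, as the droughted one has for Ciclev10029991m.g at -12.27, the fitted change depends on the prior count.

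Many genes separated the groups library by library. In 3286 genes (16.1%) every droughted library stood above every irrigated one, and in 5321 (26%) every droughted library stood below, 42.1% of genes in all. Of the 3371 genes that rose, 2620 were separated in this way, and of the 4679 that fell, 4238. The genes that fell took 12.4, 8.78, 8.82 and 7.97% of the counts in WD 1 to WD 4 and 30.7, 27.8 and 27.4% in Ctrl 1 to Ctrl 3. The genes that rose took 31.6, 38.0, 35.8 and 39.3% in WD 1 to WD 4 and 15.1, 17.4 and 16.4% in the 3 irrigated libraries. These genes were chosen on the same libraries, so the shares are a description and no test. In whole roots, fewer cells of a kind and less RNA per cell cannot be told apart.

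Ciclev10027891m.g, one of the genes that rose, had 12.6, 28.1, 19.2 and 23.5 CPM in WD 1 to WD 4, against 0.481, 0.385 and 0 CPM in Ctrl 1 to Ctrl 3. All droughted libraries were high, and the irrigated ones held 14 reads together. Its log2 fold change was 6.23 ± 0.95 (SE, edgeR adjusted p = 0.000239). Ciclev10006437m.g had 86.7, 107, 100.4 and 42.0 CPM in WD 1 to WD 4 and 0.801, 2.50 and 1.58 CPM in the irrigated libraries. WD 4 was the lowest of the droughted libraries and still far above the controls, and the log2 fold change was 5.67 ± 0.73 (SE, edgeR adjusted p = 8.22e-05).

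Ciclev10029991m.g, among the genes that fell, had 0.0576, 0, 0.0699 and 0 CPM in WD 1 to WD 4, against 365, 464 and 19.3 CPM in Ctrl 1 to Ctrl 3. The 4 droughted libraries held 2 reads of it and the 3 irrigated ones 14623, and Ctrl 3 was low among the controls. The ratio of pooled counts was 5261-fold lower in droughted roots, with an exact counting interval (95%) of 1456- to 43446-fold (edgeR adjusted p = 0.000194). Ciclev10024250m.g had 0 counts in all 4 droughted libraries and 43.4, 55.4 and 3.78 CPM in the irrigated ones. Its mean in irrigated roots was 34.2 ± 27.0 CPM (SD, n = 3) and rests mainly on Ctrl 1 and Ctrl 2. That is 449-fold above a floor of 3 counts over the droughted group (0.0762 CPM). By the exact counting interval (95%) of pooled counts the gene was at least 346-fold lower under water deficit (edgeR adjusted p = 0.000397). Intervals and floors cover counting error only.

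**Figure D2:**
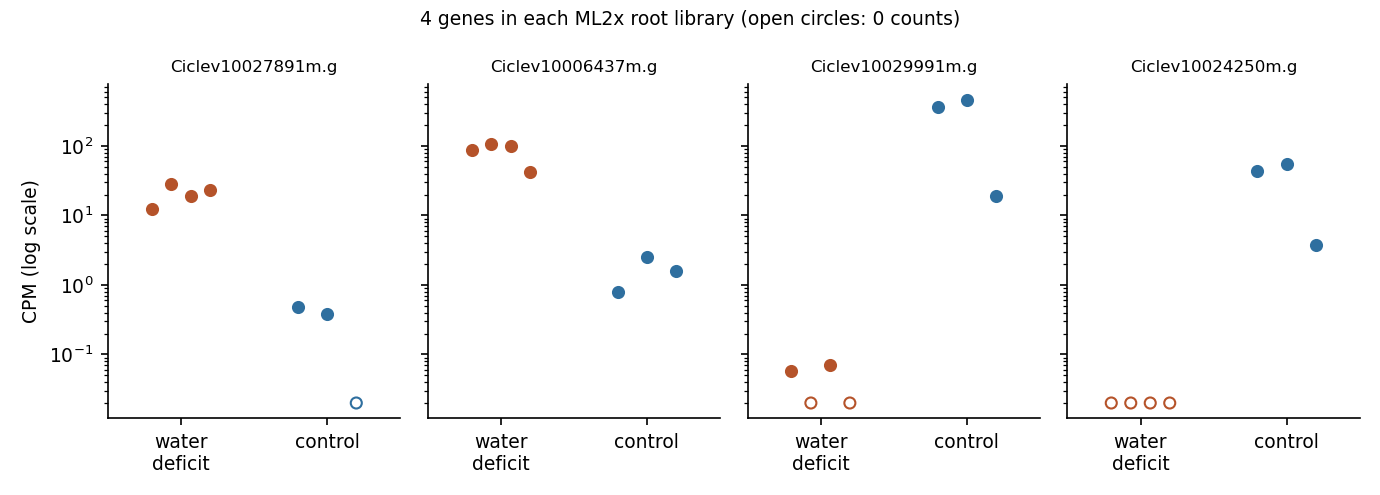
CPM (log axis) of the 2 genes that rose and the 2 that fell that rank first by absolute log2 fold change less 2 SE, in each ML2x root library, with water deficit left of control and open circles for libraries with 0 counts, drawn at an arbitrary low position. The genes were chosen to have all droughted libraries on one side of the irrigated ones, so that separation is no finding. For both genes that fell Ctrl 3 is the lowest control, at 19.3 and 3.78 CPM.

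Few genes had no count at all in droughted roots. Of 15015 genes with a mean of at least 5 CPM in irrigated ML2x roots, 15 had 0 counts in all 4 droughted libraries. All 15 were called lower, but they were chosen on these same libraries, so the calls are no separate finding. Their means in irrigated roots ran from 6.29 to 34.2 CPM, which is 82.6- to 449-fold above the same floor. Of 13671 genes at 5 CPM or more in droughted ML2x roots, 0 had no count in all 3 irrigated libraries. The 15 genes varied between irrigated trees, with medians of 14.4, 15.1 and 2.47 CPM in Ctrl 1, Ctrl 2 and Ctrl 3, and Ctrl 3 was the lowest in 14 of them. In the other combinations they were low without being absent, with a median level of 0.235 CPM in the 11 other droughted root libraries and 5.42 CPM in the 9 other irrigated ones. Absence in ML2x was the rule of choice, so this contrast does not set ML2x apart.

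Genes enriched in roots were found mainly among those that fell. Of the 2132 root-enriched genes 1220 fell (57.2%, against 22.9% of all genes tested) and 127 rose (5.96%, against 16.5%). The median log2 fold change was -1.68 in the class and -0.04 over all genes. Without WD 4 it was 1136 of the 2132 that fell and 136 that rose. Their share of the counts was 9.79, 8.39, 8.03 and 8.53% in WD 1 to WD 4, against 16.5, 16.0 and 14.4% in Ctrl 1 to Ctrl 3, and the groups did not overlap. In the other combinations it was 10.0 ± 1.57% in 11 droughted libraries and 13.3 ± 1.29% in the 9 irrigated ones (SD), though the irrigated ones had served to choose the list. Of the 874 leaf-enriched genes that roots also expressed, 152 rose (17.4%) and 94 fell (10.8%). Ciclev10029991m.g and Ciclev10024250m.g belonged to the root-enriched list.

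Genes were also grouped by level, and over all genes tested 22.9% fell and 16.5% rose in ML2x. CPM is not divided by gene length, which the files do not give, so these classes rank counts and not transcripts. Among genes with a mean of 1 to 10 CPM in the irrigated roots of the other combinations, 27.2% fell and 10.8% rose in ML2x. Between 10 and 100 CPM the shares were 22.4% and 19.8%, and at 100 CPM or more 21.8% and 20%. Without WD 4 the order turned in both of these classes, with 21.9% lower and 24.6% higher between 10 and 100 CPM, and 22.4% lower and 23% higher at 100 CPM or more. From 1 to 10 CPM it was kept, with 25.6% lower and 14% higher. Over all genes without WD 4, 22.2% were lower and 20.2% higher. Below 1 CPM, where few reads back each value, 13.4% fell and 12.3% rose with all libraries. The 10 genes with the most counts in the irrigated roots of the other combinations were also read in ML2x. Of these, 4 fell (against 22.9% of all genes), 2 rose (against 16.5%) and 4 were not called. Together they took 3.84, 5.18, 3.58 and 8.45% of the counts in WD 1 to WD 4 and 4.35, 4.10 and 3.19% in Ctrl 1 to Ctrl 3, so WD 2 and the shallow WD 4 lay above all controls. The difference of means was 1.38 percentage points (exact permutation test, two-sided, p = 0.4, n = 4 and 3). It was 0.32 points without WD 4. The effective number of genes, a measure of how evenly counts are spread, was 5231 ± 1179 in droughted and 6561 ± 510 in irrigated ML2x roots (SD, n = 4 and 3, exact permutation test, two-sided, p = 0.114). The difference was -1330 genes with all libraries and -770 without WD 4. At equal counts the droughted libraries had 18566, 17757, 17744 and 16149 genes detected in WD 1 to WD 4 and the irrigated ones 19078, 19139 and 19291 in Ctrl 1 to Ctrl 3, so WD 4 was the lowest at the same depth too. Over both measures the adjusted values are 0.4 and 0.228, and 4 against 3 libraries cannot give a p below 0.0571.

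**Figure D3:**
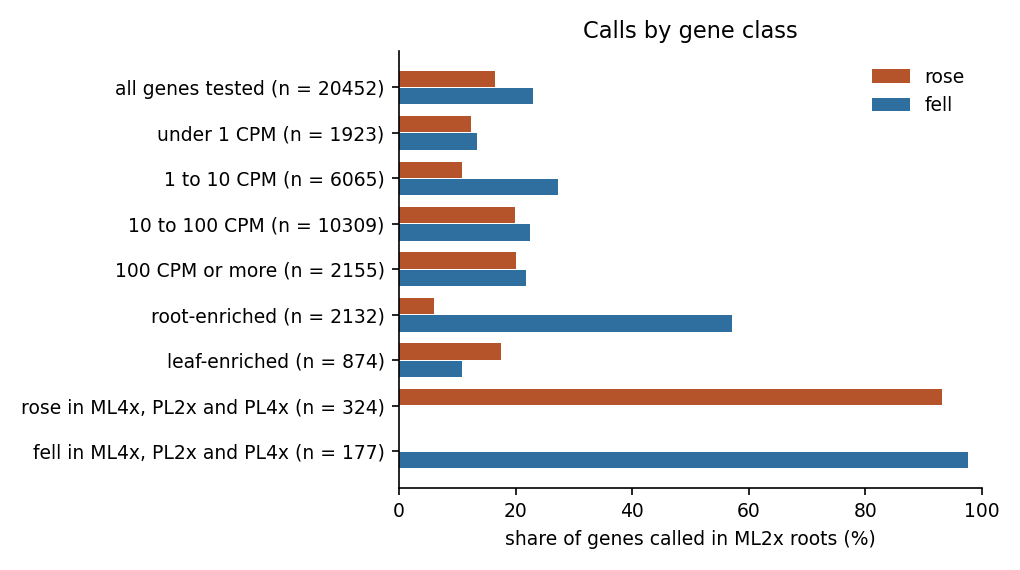
Share of the genes of each class that rose (upper bar) or fell (lower bar) in ML2x roots under water deficit, with the number of genes in brackets; CPM classes and tissue-enriched lists were made from libraries other than ML2x. The root-enriched class stands out with 57.2% lower, and nearly all genes called in the same direction in the 3 other combinations were called in ML2x.

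The 4 droughted libraries, 1 per tree, did not score alike on the response of the other combinations. Each library was placed on the mean response of the other 3 combinations, with 0 at the mean of the irrigated ML2x libraries and 100 at that mean response. The droughted libraries scored 103, 154, 156 and 162%, and the irrigated ones -6.90, 0.33 and 6.57%. WD 1 was the lowest of the droughted trees and lay near the mean of the other combinations, while the rest lay above it. Rank correlations with the irrigated libraries were 0.888 to 0.911 for WD 1 and 0.811 to 0.849 for WD 2 to WD 4. WD 4 also correlated less with its own group (0.902 to 0.906), so its low values here are no measure of response. The score moved with depth. After thinning to the counts of WD 4 the droughted libraries scored 75.9, 101, 103 and 91.3%, with WD 1 still the lowest. The mean was 92.8 ± 12.4% in place of 144 ± 27.6% (SD, n = 4), so a mean above 100% was not kept. WD 4 itself lost no counts, yet its score moved from 162 to 91.3%. Thinning thus also moved the scale of the score, and how the mean lies to 100% was not settled.

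**Figure D4:**
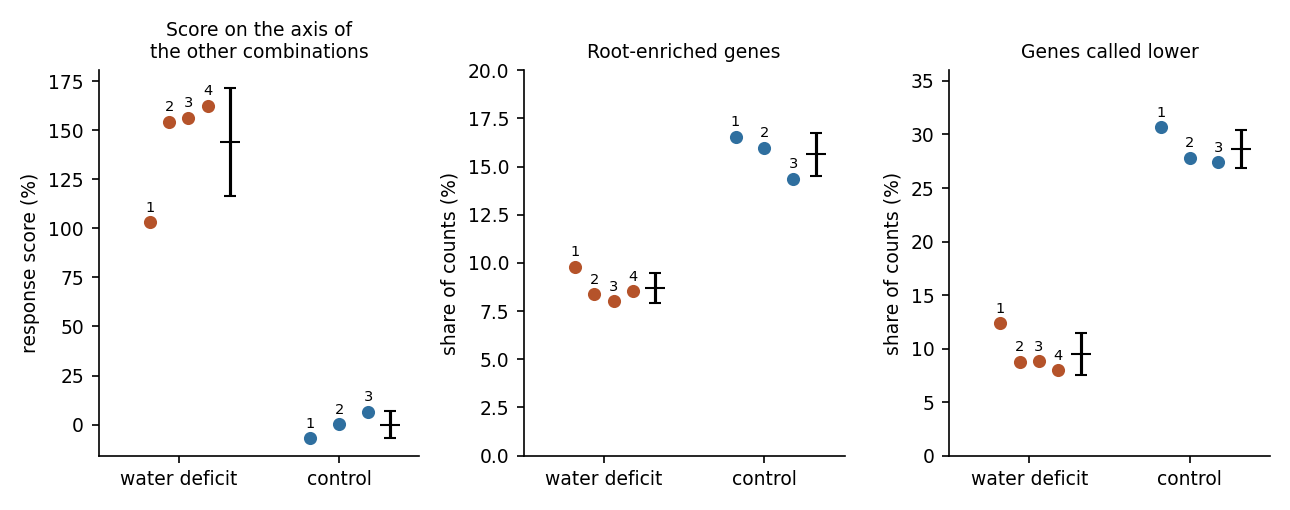
Left, response score of each ML2x root library in percent of the mean response of the other combinations; middle and right, share of counts taken by root-enriched genes and by genes called lower. Points are libraries with their replicate number, and bars are mean and SD. Droughted and irrigated libraries are apart in each panel, with WD 1 at 103%, 9.79% and 12.4% the droughted library nearest to the controls.

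Most genes called in all the other combinations were called in ML2x as well. Of the 324 genes called higher in each of ML4x, PL2x and PL4x roots, 302 rose in ML2x and 0 fell. The 302 are 93.2%, against 16.5% of all genes tested, and the median log2 fold change was 1.60. Of the 177 genes called lower in each, 173 fell (97.7%, against 22.9% of all genes) and 0 rose, with a median of -2.39. Without WD 4 the counts were 306 (94.4%) and 175 (98.9%), against 20.2% and 22.2% of all genes. ML2x and these combinations share no libraries, but the genes were tested in 1 fit with a common estimate of the spread. Seen from ML2x, the calls were less widely shared. PL2x had 6 root libraries, 3 of them droughted, and ML2x, ML4x and PL4x had 7 each. The lengths of the lists are therefore not compared at equal library numbers. In ML2x 16.5% of all genes rose and 22.9% fell, shares to set beside the percentages of the other lists below. Among all genes tested, 6.38% rose and 7.97% fell in ML4x roots (14.4% in all), 2.31% rose and 1.45% fell in PL2x (3.76% in all), and 8.9% rose and 9.64% fell in PL4x (18.5% in all). ML2x and PL4x shared 1309 higher genes (38.8% of the ML2x list, 71.9% of the PL4x list) and 1636 lower ones (35.0% and 83.0%), while 3 genes called lower in ML2x were higher in PL4x and 0 had the opposite pattern. With ML4x, the same scion on the tetraploid rootstock, 893 higher genes (26.5% and 68.5%) and 1186 lower genes (25.3% and 72.7%) were shared, while 10 genes called lower in ML2x were higher in ML4x and 2 called higher in ML2x were lower in ML4x. With PL2x, the same rootstock under the other scion, it was 412 (12.2% and 87.3%) and 276 (5.90% and 92.9%), with 1 gene lower in ML2x and higher in PL2x and 0 with the opposite pattern.

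In the ML2x list, 1853 higher and 2722 lower genes were called in none of the other combinations. These genes leaned the same way elsewhere. The 1853 had median log2 fold changes of 0.86 in ML2x, where they were chosen, and 0.30, 0.44 and 0.38 in ML4x, PL2x and PL4x. The 2722 had medians of -1.84 in ML2x and -0.45, -0.71 and -0.77 in the others. None of them passed the test of a difference between ML2x and the mean of the others, in which edgeR had 0 calls among 20452 genes (0%). At an unadjusted p under 0.05 that test held 2491 genes, DESeq2 called 202 and voom 36. Leaving out Ctrl 3 gave 33 calls.

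The difference of response from ML4x alone, which sets a diploid against a tetraploid rootstock under the same scion, also had 0 calls in edgeR (0%), with 2915 genes at an unadjusted p under 0.05, 271 calls in DESeq2 and 58 in voom. Leaving out WD 1 gave 38 calls and leaving out Ctrl 3 gave 24. Among ML4x libraries, it gave 8 calls to leave out WD 4 and 1 to leave out Ctrl 2. The difference from PL2x had 0 calls (0%), with 1329 genes at an unadjusted p under 0.05, 3 in DESeq2 and 0 in voom. A reading of response size that did not use ML2x to choose genes took those called in PL4x. The 1971 genes that fell in PL4x had median log2 fold changes of -2.09 in ML2x, -1.43 in ML4x and -1.23 in PL2x, and 1477 of them had the larger absolute change in ML2x when set against ML4x. The 1821 genes that rose in PL4x had medians of 1.01 in ML2x, 0.88 in ML4x and 0.74 in PL2x, and 1103 were larger in ML2x than in ML4x. Without WD 4 the ML2x medians were -2.07 and 1.03. No like count over all genes stands beside these counts, so they are a description and no test. The test of the difference from ML4x is the one with 0 calls in edgeR.

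The 4 named genes had the same sign of change in each combination. Ciclev10006437m.g averaged 72.4 ± 44.0 CPM in droughted and 0.681 ± 0.103 CPM in irrigated ML4x roots, 78.7 ± 27.0 and 1.25 ± 0.461 CPM in PL2x, and 65.4 ± 51.2 and 0.665 ± 0.217 CPM in PL4x (SD, n = 3 or 4). Ciclev10027891m.g rose in the 3 combinations too, with log2 fold changes of 5.33 ± 0.91, 4.51 ± 0.89 and 5.73 ± 0.90 in ML4x, PL2x and PL4x (SE, edgeR adjusted p = 0.000725, 0.00683 and 0.000518). Ciclev10029991m.g stood at 0.274 ± 0.384 CPM in droughted and 72.5 ± 53.6 CPM in irrigated ML4x roots, against 283 ± 234 CPM in irrigated ML2x roots. Ciclev10024250m.g averaged 0.925 ± 1.08 CPM in droughted and 9.46 ± 2.98 CPM in irrigated PL2x roots and was not called there (edgeR adjusted p = 0.0956), while it fell in ML4x (adjusted p = 0.00472) and PL4x (adjusted p = 0.00213).

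Irrigated ML2x roots were also set against the mean of the other irrigated roots, and droughted ones against the other droughted roots. In irrigated roots 369 genes were higher (1.8% of genes tested) and 13 lower (0.0636%) in ML2x than in the mean of the other 3 combinations (1.87% in all), and without Ctrl 1 no gene was called, so the count rests on that tree. In droughted roots 0 genes passed in edgeR (0%), while 2946 had an unadjusted p under 0.05, with 39 calls in DESeq2 and 0 in voom. The 369 genes had a median log2 difference of 1.70 in the irrigated libraries that chose them and 0.19 in the droughted libraries, which did not. Their median log2 CPM was 5.11, 4.50, 4.85 and 4.21 in WD 1 to WD 4 and 6.76, 5.94 and 5.18 in Ctrl 1 to Ctrl 3. In irrigated PL2x roots, of the same diploid rootstock, it was 4.53, 5.52 and 5.26, which put 2 of the 3 libraries above ML2x Ctrl 3. The irrigated ML4x libraries stood at 3.64, 4.17 and 4.02 and the PL4x ones at 4.17, 4.19 and 4.28, all below ML2x. Ciclev10021923m.g had 86.8, 21.9 and 6.39 CPM in the irrigated ML2x libraries and between 0 and 11.8 CPM in the 9 others (log2 difference 5.39 ± 0.84, SE, edgeR adjusted p = 0.00109), and averaged 5.53 ± 6.19 CPM in droughted ML2x roots. Ciclev10022680m.g had 42.2, 12.7 and 8.39 CPM against 0 to 13.1 CPM (log2 difference 5.17 ± 0.77, SE, edgeR adjusted p = 0.000928). In both genes Ctrl 1 was the highest and Ctrl 3 lay within the range of the other combinations, as did Ctrl 2 for Ciclev10022680m.g. The test of whether the ML2x response differs from the others is the one with 0 calls given above. Ciclev10003264m.g was lower in irrigated ML2x roots, at 2.55 ± 1.46 CPM (n = 3) against 10.1 ± 5.72 CPM (SD, n = 9, edgeR adjusted p = 0.0074), as was Ciclev10023104m.g, at 44.8 ± 18.0 CPM against 158 ± 86.0 CPM (edgeR adjusted p = 0.0475).

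Roots and leaves of the same graft differed in part of their response. In a fit of the 14 ML2x libraries, in which 20350 genes were tested, 2174 genes rose (10.7%) and 4453 fell (21.9%) in roots, 32.6% in all. In leaves 1475 rose (7.25%) and 1678 fell (8.25%), 15.5% in all. The response itself differed between organs for 2710 genes (13.3%), being higher in roots for 926 (4.55%) and lower in roots for 1784 (8.77%). Of the 1784 genes, 1227 fell in roots and 624 rose in leaves, with 170 doing both, and of the 926 genes, 573 rose in roots and 403 fell in leaves, with 115 doing both. In both organs 415 genes rose and 668 fell. The organs differ in genotype, scion and rootstock, so organ and genotype cannot be told apart, and a response is measured within an organ. Leaf and root libraries came from the same trees, but the labels do not say which belong together, and the fit treated them as independent. The count of 2710 was 1776 without root Ctrl 1, 1757 without leaf Ctrl 2, 1606 without leaf Ctrl 3 and 1268 with the libraries thinned.

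Ciclev10023018m.g changed in opposite directions. It had 1.83, 3.64, 2.12 and 0.842 CPM in droughted and 0.0711, 0.0868 and 0.169 CPM in irrigated roots, and 10.5, 0.688, 2.39 and 1.67 CPM in droughted and 117, 86.3 and 92.0 CPM in irrigated leaves. It rose in roots (log2 4.25 ± 0.94, SE) and fell in leaves (log2 -4.62 ± 0.63, SE), a difference of 8.87 ± 1.11 (SE, edgeR adjusted p = 0.000527). Ciclev10012580m.g had 12 reads in the droughted roots and 0 in the irrigated ones. Its mean in droughted roots was 4.01-fold above a floor of 3 counts over the irrigated ones. It fell in leaves, to 0.898 ± 0.897 CPM in droughted against 11.6 ± 0.705 CPM in irrigated leaves (SD, n = 4 and 3, edgeR adjusted p = 0.00188). Ciclev10027863m.g fell in roots, with 0.262 ± 0.192 CPM in droughted and 127 ± 117 CPM in irrigated libraries (SD), and held 13 reads in the droughted leaves and 1 in the irrigated ones. Ciclev10019773m.g, the other gene whose response was lower in roots, had its leaf reads almost wholly in 1 library, with 0, 425, 0 and 0.0712 CPM in the droughted leaves and 0 counts in the irrigated ones. In roots it averaged 0.478 ± 0.653 CPM under drought and 23.8 ± 5.35 CPM under irrigation (SD), which was not called in this fit (edgeR adjusted p = 0.129).

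Of the genes named first, Ciclev10006437m.g rose in leaves as well, at 21.3 ± 24.2 CPM in droughted libraries with 3 reads in all irrigated ones (edgeR adjusted p = 0.000553), and its response did not differ past the threshold between organs (adjusted p = 0.284). Ciclev10027891m.g held 21 reads in the droughted and 2 in the irrigated leaves and was not called there (edgeR adjusted p = 0.0702). Its difference between organs was not called either (edgeR adjusted p = 0.252). Ciclev10029991m.g and Ciclev10024250m.g were nearly absent from leaves. They had 0 reads each in the 4 droughted libraries and 2 and 0 reads in the 3 irrigated ones.

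**Figure D5:**
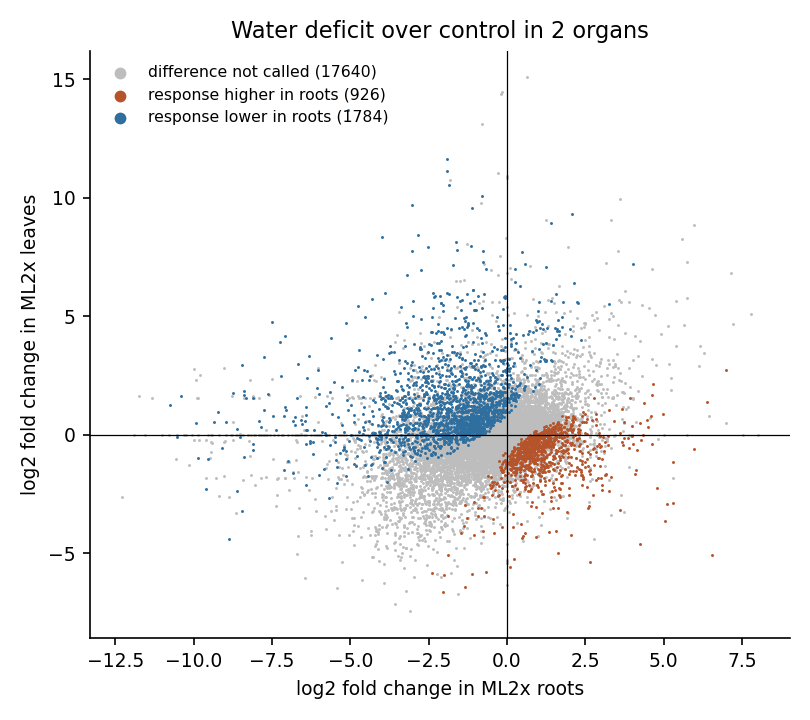
Log2 fold change of water deficit over control in ML2x roots (horizontal) and ML2x leaves (vertical) for 20350 genes, coloured where the response was called higher (926) or lower (1784) in roots than in leaves. Genes with a lower response in roots lie mostly at the upper left and those with a higher response mostly at the lower right. They were chosen by a test on the plotted values, so the side on which they lie is no finding.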

How the data were processed

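Total RNA of leaves and roots was made into libraries with a stranded mRNA kit from 1 µg, per the labels' protocols. The authors deposited raw read counts per gene, 1 table per organ, and the submitters' processing notes name Trimmomatic and HTSeq. For aligner, genome build and strand setting, the sources used here give nothing, so reads of overlapping or near-identical genes may be split. Columns were matched to samples by title. Counts of the 27 root libraries (8 groups) were filtered with filterByExpr, scaled by TMM and tested with edgeR 4.0.16 (quasi-likelihood, robust, R 4.3.3), with Benjamini-Hochberg adjustment. ML2x roots and leaves were fitted together (14 libraries). SE is the absolute log2 fold change over the square root of F. Genes named ranked first by absolute log2 fold change less 2 SE, with at least 10 CPM in the higher group. In the main comparison the groups also had to be apart. Replicate pairs of the set differed beyond counting noise (lowest mean chi-square per gene 16.4, over 9 pairs), so none was merged. On simulated counts of the main comparison (20219 genes), edgeR recovered 25.8% of genes changed by a log2 of 1 and 77.6% at a log2 of 2, with 6 false calls. For the difference from the mean of the others (20219 genes) it recovered 19.7% and 67.2%, and for the difference between organs (20139 genes) 0% and 26.9%. Each simulation changed 66 genes by a log2 of 1, 67 by 2 and 67 by 3. In the data 39.4% of genes were called in the main comparison, so the simulated recovery does not give its sensitivity. Alternatives were DESeq2 1.42.0, voom (limma 3.58.1), other size factors, no filter, thinning, a replicate block, the 7 libraries alone and each library left out. Planned lists of named genes and cell type markers could not be measured for lack of gene names. The members and lists were chosen with earlier results of these data known. Thinned scores and class counts without WD 4 were added after seeing the data. Total counts in the set ran from 1118899 (WD 4) to 20813604.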

Additional observations from a re-analysis of the deposited data

Results flagged for a closer look

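The response to water deficit differed between ML2x roots and leaves, by a test of the difference itself, for 2710 genes. Among them were Ciclev10023018m.g, with a log2 difference of 8.87 (roots minus leaves), Ciclev10012580m.g with 8.65, Ciclev10019773m.g with -18.77 and Ciclev10027863m.g with -11.38. Each of these 4 values rests on at least 1 group with few or no reads (7 reads in all irrigated roots for Ciclev10023018m.g), so none is a firm measure of size. In 22 groups of 4 to 10 libraries, 4 had a library far from the rest, where chance flags about 1 group in 20. The droughted root library WD 4 had 0 CPM of Ciclev10012580m.g, against 0.247 to 0.295 CPM in the other 3. The gene had 12 reads in all droughted roots, and WD 4 was the shallowest of them at 1118899 counts. The droughted leaf library WD 2 had 424.7 CPM of Ciclev10019773m.g, against at most 0.0712 CPM in the others. WD 1 scored 103.0% on the response axis, below the other droughted roots. PL2x Ctrl 2 had 11.8 CPM of Ciclev10021923m.g, the highest of the 9 other irrigated root libraries. The causes were not tested.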

How the results depend on the processing

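The direction of change and the call of the 4 genes named in the main comparison were kept in 56 of 56 alternatives (adjusted p from 5.23e-18 to 0.00966). Calls in ML2x roots ranged from 5620 to 8648 with 1 library left out, higher ones from 2165 to 4119, lower ones from 3249 to 4964 and root-enriched lower ones from 907 to 1319. Fitted alone, the 7 libraries gave 2176 higher genes. Thinned libraries gave 2611 lower genes, 248 calls between irrigated roots, 1268 between organs and a mean score of 92.8%. DESeq2 called 271 genes in the difference from ML4x, 3 from PL2x, 202 from the mean of the others and 39 between droughted roots. Voom called 58 from ML4x, 36 from the mean of the others, 1211 between irrigated roots and 5792 between organs. With 1 library left out, calls ranged from 0 to 38 against ML4x, 0 to 0 against PL2x, 0 to 33 against the mean of the others, 0 to 511 between irrigated roots, 0 to 0 between droughted roots and 1606 to 3439 between organs. The difference in the share of the 10 most abundant genes ranged from 0.32 to 1.94 points, and in effective genes from -1646 to -770, the last without WD 4. The causes were not tested.

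Replicate numbers did not pair the root samples, since deviations of same-numbered droughted and irrigated libraries correlated at -0.06, 0.05 and 0.09. A replicate block gave 3546 higher and 4350 lower genes, 1 call against ML4x, 1 against the mean of the others, 0 against PL2x, 265 between irrigated roots, 0 between droughted roots and 2304 between organs (2043 with the block by treatment and number). WD 4 held 16149 detected genes in 1118899 counts, and at that depth the other droughted libraries held 17744 to 18566.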
